A study of Monodelphis domestica and Mus musculus with 2 samples.

Results

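Axon guidance ligands and receptors were followed across the depth and the cell subclasses of the primary visual cortex (V1) of the opossum and the mouse. The members were chosen by symbol, with earlier results of these data known. The rule took features found in more than 8 cells, with case ignored in the symbol. Included were symbols that began with Epha, Ephb, Efna, Efnb, Sema, Plxn, Robo, Slit and a digit, or Unc5. Dcc, Nrp1, Nrp2, Ntn1 and Ntn4 were included by their full symbol. This gave 61 of 30613 features in the opossum table and 72 of 61317 in the mouse table. Of these, 59 opossum and 67 mouse features are ephrins, Eph receptors, semaphorins, plexins, neuropilins, Slits, Robos, netrins or netrin receptors. The others matched by prefix alone (Unc50 and Unc5cl) or are features antisense to Plxna4 (3 in the mouse), and they were left out of the counts below. Opossum features that carry only an identifier could not match the rule.

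The series compares V1 of a marsupial and a placental mammal by Stereo-seq, in which transcripts are captured on a patterned chip and their unique molecular identifiers (UMIs) are assigned to segmented cells. Both animals were male and untreated, with no genetic change stated: 1 gray short-tailed opossum (Monodelphis domestica) of about 6 months and 1 C57BL/6J mouse of about postnatal day 40. A single section of 10 µm was cut from a block of each, in which coronal slices of the brain were embedded together. The RNA integrity number was 7.1 in the opossum block and above 9 in the mouse block. Each species is thus 1 sample, so no test was possible and no p-value is given, and species, age, RNA quality and annotation cannot be told apart. V1 was outlined by the authors as 3 regions (opossum) and 4 regions (mouse). The paper counts them as coming from more than 1 coronal section in each species. They show spread within 1 animal and are not biological replicates.

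These families steer growing axons by attraction or repulsion. Ephrins are bound to the membrane and signal through Eph receptor kinases, semaphorins act through plexins (the secreted ones mostly together with neuropilins), Slits act through Robo receptors, and netrins act through Dcc and the Unc5 receptors. In the adult cortex many of them stay expressed in neurons and glia, where they are known for roles at synapses and in contacts between cells.

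Each V1 region was cut by depth into 3 parts of equal height, called upper, middle and lower V1. A level is given as UMIs of a feature per 10000 UMIs of the cells concerned. Brackets hold exact 95% intervals, Poisson for a level and conditional binomial for a ratio of levels, and they cover counting error only. UMIs were not divided by transcript length, so levels were compared between cells and not between genes. Members with at least 100 UMIs in V1 were compared, which were 37 of 59 in the opossum and 52 of 67 in the mouse. A difference was called where it reached 1.5-fold and every V1 region lay on the same side of 1.

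The V1 regions held 4806 opossum and 9127 mouse cells with 6933475 and 12522687 UMIs, and 4564 and 7653 of these cells carried a subclass label. The libraries shared 0 cell barcodes. Depth followed the layers: the summed level of the upper-layer markers Cux1 and Cux2 was 4.48 in upper V1 and 1.40 in lower V1 of the opossum and 2.98 and 0.65 in the mouse. That of the layer 6 markers Foxp2, Tle4 and Syt6 was 1.32 and 5.22 in opossum V1 and 0.68 and 2.84 in mouse V1. Markers also showed UMIs of neighbouring cells. The 3 glutamatergic markers summed to 14.7 in mouse cells labelled astrocytes and to 15.1 in those labelled L2/3, and the 2 found in the opossum summed to 3.35 in astrocytes and 5.23 in IT_A. Oligodendrocyte markers, 3 of 4 found in the opossum and 4 of 4 in the mouse, summed to 21.5 in upper and 55.1 in lower V1 of the opossum and to 15.5 and 35.8 in the mouse. The part of such mixing in the values below was not tested, except that each subclass was also set against cells of the same region and the same of 10 depth bins (called matched depth below).

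In the opossum 5 of 37 members were at least 1.5-fold higher in lower V1, against 7.29% of all 8846 features compared, and 8 were higher in upper V1, against 7.45%. Together these 13 were 35.1% of the members, against 14.7% of all features. In the mouse 8 of 52 members were higher in lower V1, against 3.93% of 11402 features, and 9 in upper V1, against 4.88%. The 17 members called in either direction were 32.7% of the members, against 8.81%. The median size of the lower over upper fold, regardless of direction, was 0.50 on the log2 scale in opossum members and 0.25 in all opossum features, and 0.34 and 0.20 in the mouse. The other 24 opossum and 35 mouse members were not called. No test of these shares was made.

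**Figure D1:**
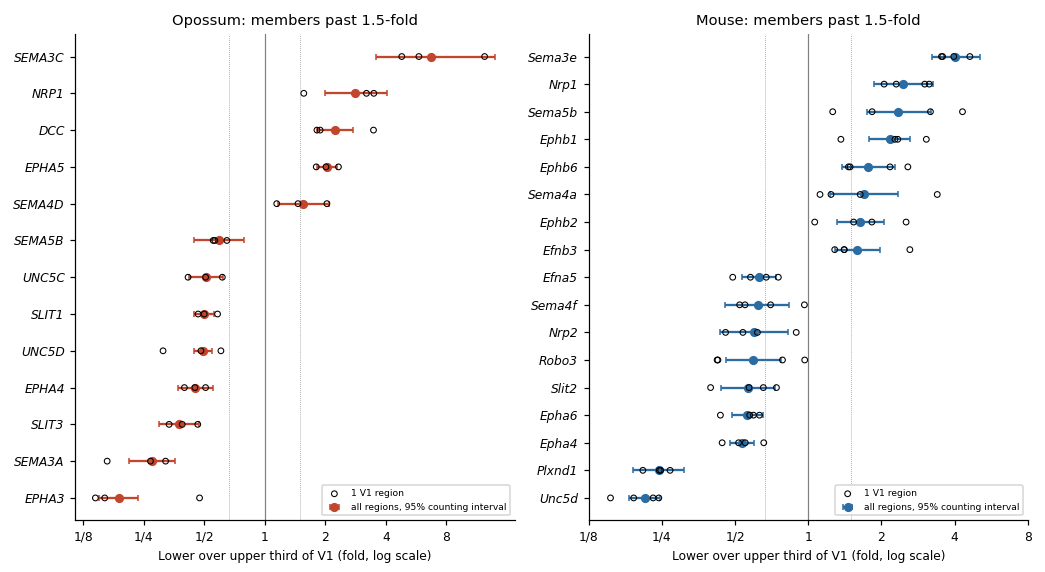
Level in lower V1 over the level in upper V1 (log axis) for every called member, opossum on the left and mouse on the right. Filled points are all regions together with 95% counting intervals, open circles are single V1 regions, and dotted lines mark 1.5-fold in either direction. SEMA3C at 6.70 and EPHA3 at 0.19 bound the opossum range, and Sema3e at 4.02 and Unc5d at 0.21 the mouse range.

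Among the Eph receptors, EPHA3 and EPHA4 lay in the upper layers of the opossum and EPHA5 in its deepest layer. EPHA3 had levels of 1.82, 2.72 and 1.19 in upper V1 of the 3 regions and, in lower V1, of 0.291, 0.392 and 0.564. The regions did not overlap, and upper V1 was 5.30-fold higher [4.25 to 6.65]. Region 3 stood apart from the others with the smallest difference. EPHA5 ran the other way, from 1.80, 2.16 and 1.88 in upper V1 to 4.17, 3.90 and 3.79 in lower V1, 2.04-fold [1.82 to 2.29]. Its level peaked in the deepest bin at 6.05 and was lowest in bin 2 from the top at 1.62. In the mouse neither was layered this way. Epha3 differed by 0.89-fold [0.62 to 1.26] between lower and upper V1 with regions on both sides of 1, and Epha5 was 1.22-fold [1.08 to 1.37] higher in upper V1 in every region, though levels of single regions overlapped.

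Epha4 was an upper-layer receptor in both species. The opossum regions held 1.32, 1.41 and 1.17 in upper V1 and 0.670, 0.560 and 0.524 in lower V1, and the mouse regions 2.02, 1.89, 2.23 and 2.07 against 1.11, 1.24, 1.15 and 0.917. No upper value overlapped a lower value in either species, and upper V1 was 2.21-fold [1.81 to 2.71] and 1.87-fold [1.67 to 2.10] higher. The profiles differed in shape: EPHA4 was highest in bin 1 at 1.77 and mouse Epha4 in bin 4 at 2.41. Mouse Epha6 was also an upper-layer receptor, 1.78-fold [1.54 to 2.06], and Epha6 was not among the opossum members.

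Of the EphB receptors of the mouse, Ephb1, Ephb2 and Ephb6 were called in lower V1. Ephb1 rose from 0.410, 0.339, 0.496 and 0.296 in upper V1 to 0.956, 1.04, 0.676 and 0.673 in lower V1, 2.16-fold [1.79 to 2.62] without overlap. Ephb6, a family member without kinase activity, was 1.76-fold higher [1.38 to 2.27] and Ephb2 1.63-fold [1.31 to 2.04]. Ephb3 was the exception at 0.67-fold [0.55 to 0.82], on the upper side in every region. In the opossum EPHB6 and EPHB2 leaned the same way as in the mouse, by 1.49-fold [1.12 to 2.00] and 1.41-fold [0.94 to 2.15] with every region above 1, below the 1.5-fold limit. EPHB1 instead was 1.41-fold [1.15 to 1.74] higher in upper V1 in every opossum region. The fold of mouse Ephb1 was 3.03 in glutamatergic cells and 0.80 in cells of the non-neuronal class, there on 34 and 65 UMIs.

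Ephrins are the ligands of these receptors. None of the 4 opossum ephrins measured was called. EFNA5, the most counted of them with 1583 UMIs, stood at 1.03-fold [0.91 to 1.16]. In the mouse Efna5 was 1.60-fold [1.36 to 1.88] higher in upper V1, with 1.01, 0.839, 1.08 and 0.758 in the regions against 0.681, 0.632, 0.623 and 0.371. Efnb3, a transmembrane ephrin, was the only deep one of 7 mouse ephrins at 1.59-fold [1.29 to 1.98]. Its fold was 2.28 in non-neuronal cells. Efnb3 was also called in oligodendrocytes at 1.97-fold [1.51 to 2.54], but not at matched depth, where the fold was 1.58 [1.23 to 1.99] with 1 region at 0.963.

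Among members compared, the highest lower over upper fold of each species belonged to a secreted semaphorin, SEMA3C in the opossum and Sema3e in the mouse. Opossum SEMA3C was low at the top of V1, with 0.0682, 0.0249 and 0.0714 in upper V1 of the regions and 0.398, 0.308 and 0.342 in lower V1. The fold was 6.70 [3.57 to 13.9], resting on 11 UMIs above and 91 below. Mouse Sema3c did not follow, at 1.10-fold [0.74 to 1.66]. Mouse Sema3e, which binds the receptor Plxnd1 directly, had 0.227, 0.258, 0.266 and 0.249 in upper V1 and 1.05, 1.02, 0.95 and 0.878 in lower V1. The mouse regions were close to each other at both depths, and the fold was 4.02 [3.21 to 5.07]. The fold was 4.32 in glutamatergic cells and 3.77 in the non-neuronal class.

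Opossum SEMA3E was lower below, with 0.409, 0.572 and 0.5 in upper V1 and 0.320, 0.345 and 0.363 in lower V1, 1.45-fold [1.08 to 1.94] higher above. Its level was highest in the middle of V1, where bin 5 held 1.00, and lowest in bin 8 at 0.172. SEMA3A, a classical repellent that acts through Nrp1, was an upper-layer ligand of the opossum: 1.06, 1.24 and 0.857 in upper V1 fell to 0.340, 0.336 and 0.141 in lower V1, 3.63-fold [2.79 to 4.75]. Mouse Sema3a was 1.03-fold [0.84 to 1.26] with high levels in bin 2 (0.520) and bin 8 (0.594) and a low one in bin 5 (0.189). The 4 mouse genes Sema3d, Sema3a, Sema3e and Sema3c lie in this order on chromosome 5 (GRCm39, starts at 12433124, 13175288, 14075290 and 17779219, all on the plus strand), and of these neighbours only Sema3e was called by depth. Sema3d had 95 UMIs in V1 and was below the limit for comparison.

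Among the semaphorins bound to the membrane, Sema5b had opposite gradients. SEMA5B had 0.648, 0.547 and 0.428 in upper V1 of the opossum regions and 0.359, 0.355 and 0.242 in lower V1, 1.69-fold [1.27 to 2.25] higher above. Mouse Sema5b had 0.126, 0.0968, 0.218 and 0.213 above and 0.401, 0.417, 0.275 and 0.390 below, 2.34-fold [1.74 to 3.19] higher below. Neither species had an upper value that overlapped a lower one. In the non-neuronal class the opossum fold turned to 1.09 on 9 and 19 UMIs, and the mouse fold was 2.14. SEMA4D, whose receptor is Plxnb1, was called deep in the opossum at 1.55-fold [1.17 to 2.09], although region 1 gave only 0.398 and 0.456. Mouse Sema4d was at 0.97-fold [0.77 to 1.22]. Sema4a was deep at 1.69-fold [1.23 to 2.35] and Sema4f upper at 1.62-fold [1.20 to 2.20] in the mouse. Sema7a, a semaphorin held by a lipid anchor, stood at 1.10-fold [0.99 to 1.22] (opossum) and 0.996-fold [0.85 to 1.17] (mouse).

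Of the receptors of semaphorins, Nrp1 was deep in both species. NRP1 rose from 0.182, 0.174 and 0.309 in upper V1 of the opossum regions to 0.582, 0.607 and 0.483 in lower V1, 2.81-fold [1.99 to 4.04]. Mouse Nrp1 (chr8:129085085-129231082, plus strand) rose from 0.221, 0.210, 0.133 and 0.130 to 0.452, 0.632, 0.306 and 0.410, 2.46-fold [1.86 to 3.27]. No upper value overlapped a lower value in either species. Among glutamatergic cells alone NRP1 was at 3.37 and Nrp1 at 3.05. In the non-neuronal class NRP1 was at 0.64, on 8 and 10 UMIs, and Nrp1 at 1.33. Nrp2, the other neuropilin, was 1.67-fold [1.22 to 2.30] higher in upper V1 of the mouse, and NRP2 had 72 UMIs in the opossum.

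Plxnd1 was the only plexin called by depth in either species. In the mouse (chr6:115931772-115972286, minus strand) it fell from 0.788, 0.936, 0.823 and 0.841 in upper V1 to 0.195, 0.253, 0.201 and 0.176 in lower V1, 4.12-fold [3.25 to 5.25], with a drop from 0.914 in bin 5 to 0.300 in bin 6. The fold was also below 1 in non-neuronal cells alone, at 0.31. Opossum PLXND1 leaned the same way in every region without reaching the limit, at 1.33-fold [0.93 to 1.92]. Plxna2, a receptor of semaphorins of the sixth class, was 1.29-fold [1.08 to 1.56] higher below in the opossum and 1.41-fold [1.23 to 1.61] in the mouse, again in every region of both. Plxna1 and Plxnb1 lay between 0.94 and 1.16 in both species.

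Of the 3 Slits of the opossum, SLIT1 and SLIT3 were called in upper V1. SLIT1 had 4.12, 4.10 and 3.35 in upper V1 and 2.06, 1.91 and 1.95 in lower V1, 2.00-fold [1.79 to 2.24]. SLIT3 fell from 1.40, 1.03 and 0.738 to 0.544, 0.345 and 0.342, 2.66-fold [2.11 to 3.37]. SLIT2 had its peak in the middle, at 3.41 in bin 6 against 0.440 in the deepest bin, and was 1.39-fold [1.20 to 1.60] higher above. In the mouse Slit2 was called, with 0.492, 0.290, 0.400 and 0.344 above against 0.281, 0.215, 0.158 and 0.224 below, 1.77-fold [1.37 to 2.29]. Slit3 was 1.30-fold [1.13 to 1.49] higher above and Slit1 1.11-fold [0.89 to 1.39] higher below. Of their receptors, neither Robo1 nor Robo2 was called by depth in either species. ROBO2 was 1.41-fold [1.24 to 1.61] higher above in every opossum region, and mouse Robo2, with 9659 UMIs the most counted member, was at 0.94-fold [0.89 to 0.99] with regions on both sides of 1. Robo3 was called in upper V1 of the mouse at 1.68-fold [1.30 to 2.19], although region 4 held 0.273 above and 0.263 below.

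Of the netrin receptors of the opossum, UNC5D was called in upper V1 and DCC in lower V1. UNC5D had 3.87, 5.45 and 4.71 in upper V1 and 2.34, 2.62 and 1.47 in lower V1, 2.03-fold [1.83 to 2.25]. DCC had 0.796, 0.398 and 0.738 in upper V1 and 1.45, 1.38 and 1.39 in lower V1, 2.23-fold [1.82 to 2.74], and its level in the deepest bin was 2.27. UNC5C was upper as well, at 1.96-fold [1.62 to 2.38]. Unc5d had the lowest lower over upper fold of the mouse members compared (chr8:29136745-29709664, minus strand): 2.74, 2.58, 2.34 and 2.19 in upper V1 against 0.664, 0.594, 0.359 and 0.420 in lower V1, 4.71-fold [4.09 to 5.45]. It peaked in bin 4 at 3.14. Mouse Dcc was at 1.07-fold [0.94 to 1.22], with region 2 at 1.82 and region 3 at 0.71. The netrins themselves were scarce. Ntn4 had 55 UMIs in opossum V1 and 56 in mouse V1, below the limit, and both were higher in upper V1 in every region, by 5.56-fold [2.25 to 16.5] and 4.27-fold [2.00 to 10.1]. Ntn1 had 50 UMIs in the mouse, with no such feature among the opossum members.

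**Figure D2:**
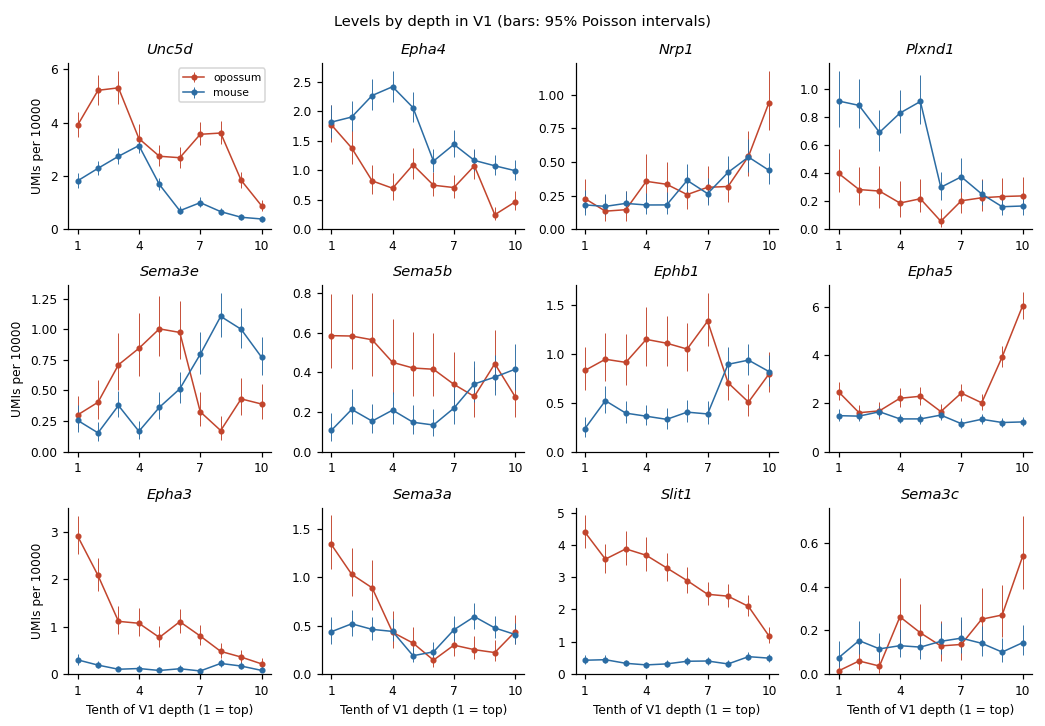
Level (UMIs per 10000 UMIs) of 12 members in 10 depth bins of V1 from top (1) to bottom (10), opossum in red and mouse in blue, with 95% Poisson intervals as bars. Unc5d peaked in bin 3 of the opossum (5.30) and bin 4 of the mouse (3.14) and was lowest in the deepest bin of both, Epha4 peaked in bin 4 of the mouse (2.41), and EPHA5 reached 6.05 in the deepest opossum bin.

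Across species, 35 members were measured in both tables. The lower over upper fold lay on the same side of 1 in 19 of them (54.3%), against 57.1% of all 5830 shared symbols. All regions of both species lay on 1 side for 9 members (25.7%, against 10.4% of all shared symbols), and all opossum regions lay opposite to all mouse regions for 5 (14.3%, against 4.20%). The 9 were Ephb2, Ephb6, Nrp1 and Plxna2 on the deep side and Epha4, Plxnd1, Slit2, Slit3 and Unc5d on the upper side. The 5 opposite ones were Epha5, deep in the opossum, and Epha7, Ephb1, Sema3e and Sema5b, deep in the mouse. Called in both species were 4 members, Epha4, Nrp1 and Unc5d in the same direction and Sema5b in opposite ones. Of the 5830 shared symbols, 189 were called in both, 147 in the same direction and 42 in opposite ones. Spearman's rho between the folds was 0.31 over the 35 members and 0.20 over the 5830 symbols. It is given as a description since the genes share 1 animal per species.

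**Figure D3:**
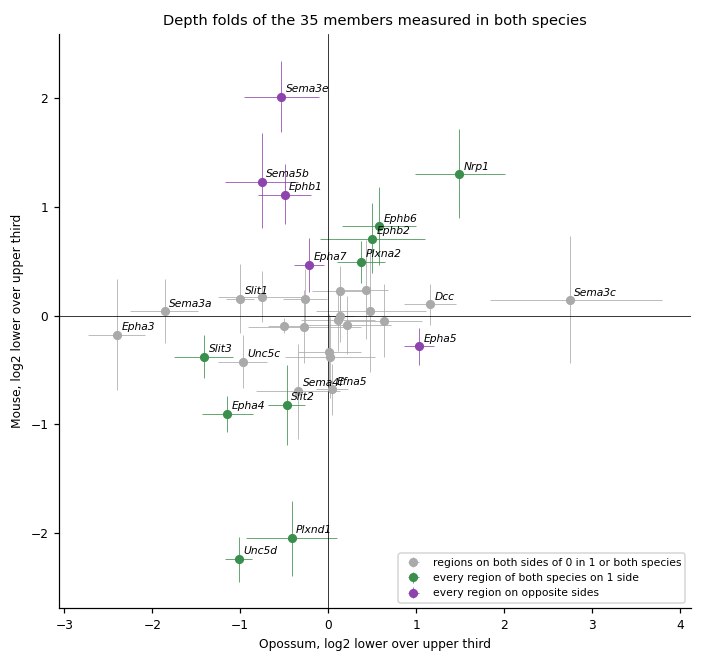
Log2 of the lower over upper fold in the opossum (x axis) and the mouse (y axis) for the 35 members measured in both, with 95% counting intervals as bars. Purple points are the 5 members whose regions lay on opposite sides in the species, with Sema3e at the top, and green points are the 9 with every region of both species on 1 side.

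Subclass labels were given by the authors from the nearest neighbours of each cell in a single-nucleus atlas, so they rest on expression, and the folds by subclass are descriptions. IT stands for intratelencephalic neurons, which project within the cortex: IT_A to IT_C in the opossum and L2/3, L4, L5IT and L6IT in the mouse. PT, CT and NP stand for pyramidal tract, corticothalamic and near-projecting neurons, Pvalb and Sst for classes of inhibitory interneurons, and Astro, OD, OPC, Micro and Endo for astrocytes, oligodendrocytes, their precursors, microglia and endothelial cells. The level in a subclass was set against all other labelled V1 cells. Most labels had their markers raised: the oligodendrocyte markers summed to 98.5 in opossum OD and 68.1 in mouse OD, Sst stood at 50.3 and 12.3 in Sst cells against 3.44 in IT_A and 3.41 in L2/3, and Rorb and Rspo1 at 7.50 in IT_B and 3.26 in L4. Markers of layer 5 did not set L5IT apart (1.08, against 1.02 in L2/3), nor opossum L5PT (0.64, with 1 of 3 markers found), and neither marker of Pvalb cells was found in the opossum table.

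In the opossum 29 of 37 members (78.4%) were called in at least 1 of 10 subclasses, against 41.6% of all features. At matched depth there were 30 (81.1%, against 43.8%). IT_B held the most calls, 9, where the background was 7.01%. IT_A held 8 (5.17%), L6CT 6 (5.29%), IT_C 5 (4.54%), Pvalb 4 (4.93%), Astro 4 (6.61%), and L5PT, Sst and OPC 2 each (4.69%, 4.35% and 3.41%). OD held 0, against 5.14% of all features. In the mouse 29 of 52 members (55.8%) were called in at least 1 of 13 subclasses, against 24.5% of features, and 28 (53.8%) at matched depth, against 26.0%. L5PT held 7 (2.65%), L6IT 6 (1.76%), L4 5 (2.07%), Sst 5 (2.25%) and L6CT 4 (1.99%). Astro and Pvalb held 3 each (3.22% and 2.17%), L2/3, OD and Endo 2 each (2.06%, 2.92% and 2.14%), L5IT and Micro 1 each (1.61% and 1.97%), and OPC 0 (1.68%). These counts moved with depth and with the fold limit. With every cell thinned to 300 UMIs and shallower cells left out, 18 opossum members were called in a subclass (48.6%, against 28.9% of all features) and 15 at matched depth (40.5%, against 30.1%), and in the mouse 16 by either measure (30.8%, against 16.4% and 17.9%). At 2-fold the opossum had 19 (51.4%, against 17.3%) and 18 at matched depth (48.6%, against 18.9%), and the mouse 14 (26.9%, against 9.88%) and 16 (30.8%, against 10.2%).

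**Figure D4:**
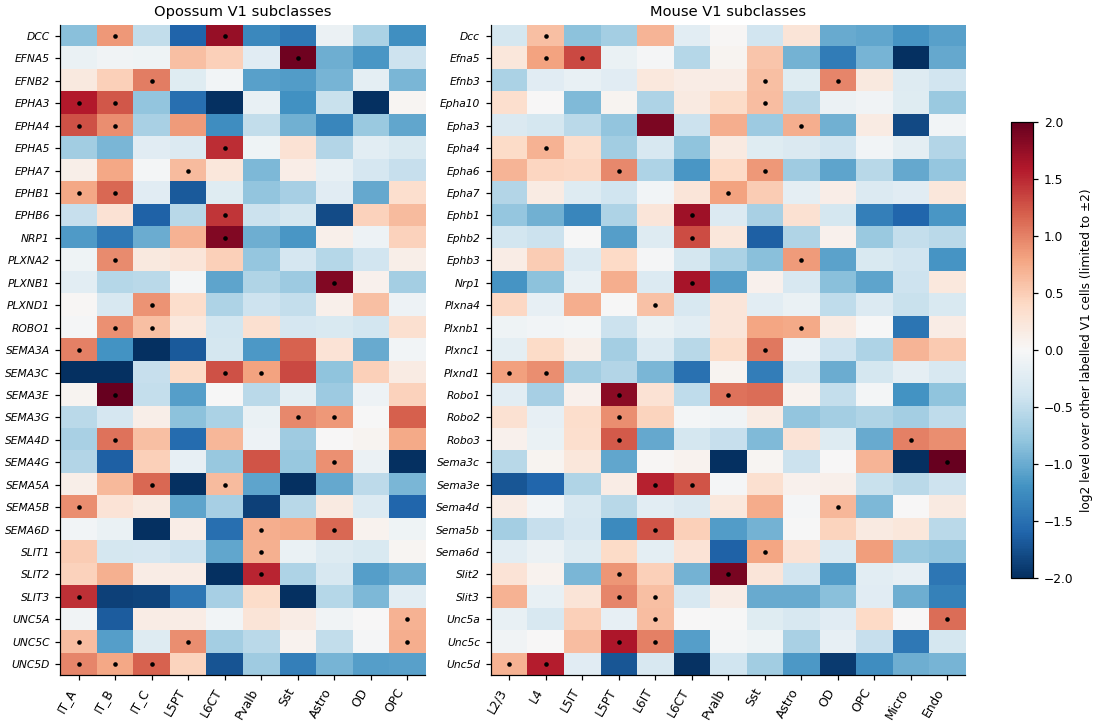
Log2 of the level in each V1 subclass (columns) over all other labelled V1 cells for the members called in at least 1 subclass (rows), opossum on the left and mouse on the right, with colour limited at 2 in either direction. Dots mark calls, and the darkest blue includes cells of the grid with few or 0 UMIs. The 8 dots of IT_A and 9 of IT_B in the opossum, and the 7 of L5PT and 6 of L6IT in the mouse, are the fullest columns.

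Receptors and ligands were both called in opossum IT neurons. EPHA3 stood at 1.89 in IT_A and 2.41 in IT_B, 3.02-fold [2.59 to 3.52] and 2.35-fold [1.73 to 3.13] over other cells. IT_A also had SLIT3 at 2.76-fold [2.27 to 3.35], EPHA4 at 2.42-fold [2.06 to 2.86] and SEMA5B at 1.90-fold [1.5 to 2.41], all kept at matched depth with 2.07, 1.96 and 1.76. SEMA3A and UNC5C were called in IT_A (2.02 and 1.54) but stood at 0.80 and 0.98 against cells of the same depth. UNC5D was called in IT_A, IT_B and IT_C, with the highest level in the deep IT_C: 6.76, or 2.27-fold [1.99 to 2.57], and 2.60 at matched depth. SEMA5A at 2.22-fold [1.79 to 2.74] and EFNB2 at 2.04-fold [1.45 to 2.81] were also called in IT_C.

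Of the 5 members called in lower V1 of the opossum, DCC, EPHA5, NRP1 and SEMA3C were also called in corticothalamic cells, and SEMA4D was not, with 1 region at 0.866. L6CT cells lay deep, at a median relative depth of 0.892, so the calls by depth and in L6CT are not independent. The share of all features called in lower V1 that were also called in L6CT was not computed. In L6CT, EPHA5 was at 6.13 against 2.20 in other cells, 2.79-fold [2.53 to 3.08], and the regions gave 3.28, 2.60 and 2.33. DCC was 3.34-fold higher [2.85 to 3.92] with regions at 3.26, 3.54 and 3.28, NRP1 3.60-fold [2.76 to 4.67] and EPHB6, which was not called by depth, 2.69-fold [2.08 to 3.47]. At matched depth these 4 were 2.10, 2.27, 2.35 and 1.90. SEMA3C was called in L6CT at 2.41-fold [1.61 to 3.54], whereas at matched depth it was 0.97. Among interneurons, EFNA5 reached 8.09 in Sst cells, 3.83-fold [3.27 to 4.46] with regions at 2.27, 6.21 and 3.11, and SLIT2 reached 4.94 in Pvalb cells, 2.87-fold [2.50 to 3.28] with regions at 3.39, 2.45 and 2.79. SEMA3A at matched depth was 4.10-fold [2.70 to 5.96] in Sst cells on 27 UMIs, above 1 in every region there but at 0.83 in the lowest region without matching. In astrocytes PLXNB1 was 3.62-fold [2.66 to 4.88] and SEMA6D 2.21-fold [1.51 to 3.17] higher.

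Mouse L5PT neurons, which project out of the cortex, held the most calls of the mouse subclasses, mainly of the Slit and netrin systems. Robo1 (chr16:72105194-72844378, plus strand) was at 1.94 in L5PT against 0.557 in other cells, 3.49-fold [2.78 to 4.33], and the regions gave 4.34, 3.41, 2.44 and 3.56. Robo2 (1.90-fold [1.76 to 2.05]), Robo3 (2.34-fold [1.58 to 3.36]), Slit2 (1.85), Slit3 (1.97) and Unc5c (3.07-fold [2.50 to 3.74]) were called there too, together with Epha6 (1.94). All 7 calls were kept against cells of the same depth, with folds of 1.69 to 2.91. All 3 mouse Robo members measured were thus called in L5PT, where 2.65% of all features were called. Robo1 was also called in Pvalb cells at 2.13-fold and Robo3 in microglia at 2.00-fold. Robo3 and Robo4 are neighbours on opposite strands of chromosome 9 (starts at 37326965 and 37313193) and do not overlap in the annotation.

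Mouse L6CT held Ephb1 at 3.25-fold [2.76 to 3.83], Nrp1 at 3.14-fold [2.50 to 3.92], Ephb2 at 2.47-fold [2.00 to 3.04] and Sema3e at 2.40-fold [2.02 to 2.85]. L6IT held Sema3e at 2.90-fold [2.31 to 3.62], Sema5b at 2.39-fold [1.61 to 3.44] and Unc5c at 2.01-fold [1.62 to 2.47]. Unc5d was called in L4, at 3.24 against 1.09 in other cells, 2.98-fold [2.70 to 3.28], with 3.34, 2.75, 3.06 and 2.70 in the regions and 2.33 at matched depth. Epha4, Efna5 and Plxnd1 were also called in L4 (1.61, 1.75 and 1.91) but were 1.23, 1.21 and 1.18 at matched depth. L5IT, a group of 135 cells, had a single call, Efna5 at 2.50-fold [1.80 to 3.38], with its lowest region at 1.00. Endothelial cells had Sema3c at 4.49-fold [2.43 to 7.73] on 15 UMIs and Unc5a at 2.17-fold [1.60 to 2.89]. The 3 endothelial markers summed to 6.18 there and to 0.545 to 2.11 in the other mouse subclasses. Sema4d was called in oligodendrocytes at 1.59-fold [1.13 to 2.18], and at matched depth it was 1.65-fold [1.20 to 2.22] with 1 region at 0.991, which is no call. After thinning to 300 UMIs the fold of Sema4d in oligodendrocytes was 0.756.

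In 7 subclass labels shared by the species, the members measured in both gave 17 opossum calls and 16 mouse calls, and 4 of them coincided: NRP1 in L6CT, UNC5C in L5PT (1.91-fold in the opossum and 3.07-fold in the mouse), SLIT2 in Pvalb cells (2.87 and 3.72) and PLXNB1 in astrocytes (3.62 and 1.69). These are 23.5% of the opossum and 25% of the mouse calls. Over all shared symbols 233 calls coincided, 12.1% of 1929 opossum and 23.8% of 979 mouse calls. SEMA4D, the ligand of Plxnb1, was called in IT_B of the opossum at 2.13-fold [1.30 to 3.31].

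Some subclasses were too small for a fold and are given by level. DCC (Dcc in the mouse) was highest in the near-projecting L5NP neurons of both species: 6.00 [4.30 to 8.14] on 41 UMIs in 39 opossum cells and 5.36 [3.88 to 7.22] on 43 UMIs in 60 mouse cells. The next subclass was L6CT at 2.50 [2.20 to 2.83] in the opossum and Vip cells at 3.01 [1.44 to 5.53] on 10 UMIs in the mouse. The mouse interval of L5NP overlapped that of the Vip cells, and the opossum interval did not reach that of L6CT. Mouse Robo1 stood at 4.81 [2.75 to 7.81] in 25 Vip cells, on 16 UMIs, above the 1.94 [1.58 to 2.37] of L5PT.

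Sema3e and its receptor Plxnd1 were followed across the subclasses of both species, with no test between them. In the mouse the ligand was highest in L6IT (1.46 [1.18 to 1.79]) and L6CT (1.07 [0.93 to 1.22]) and lowest, among subclasses with a fold, in L2/3 (0.195 [0.137 to 0.270]) and L4 (0.223 [0.169 to 0.290]). Among subclasses with a fold the receptor was highest in L4 (0.834 [0.725 to 0.955]) and L2/3 (0.829 [0.703 to 0.972]), and at 0.215 [0.156 to 0.290] in L6CT. Set against cells of the same depth, Plxnd1 was 1.18-fold in L4, 1.12-fold in L2/3 and 0.94-fold in L6CT, while Sema3e was 2.03-fold in L6IT and 1.56-fold in L6CT. In the opossum the ligand was highest in IT_B, which also had the highest sum of layer 4 markers: 2.12 [1.55 to 2.84] on 45 UMIs in 126 cells, 4.42-fold [3.16 to 6.05] over other cells, with regions at 3.73, 3.63 and 7.14 and 2.73-fold at matched depth. The other opossum subclasses with a fold held 0.254 to 0.730. PLXND1 was thinly counted there, with 161 UMIs in all and 4 in IT_B, and was called in IT_C at 1.86-fold [1.05 to 3.09] on 17 UMIs. In oligodendrocytes it was 1.52-fold [0.93 to 2.37] over other cells with 1 region at 0.997, and was called there at matched depth alone, at 1.74-fold [1.10 to 2.61] on 23 UMIs.

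**Figure D5:**
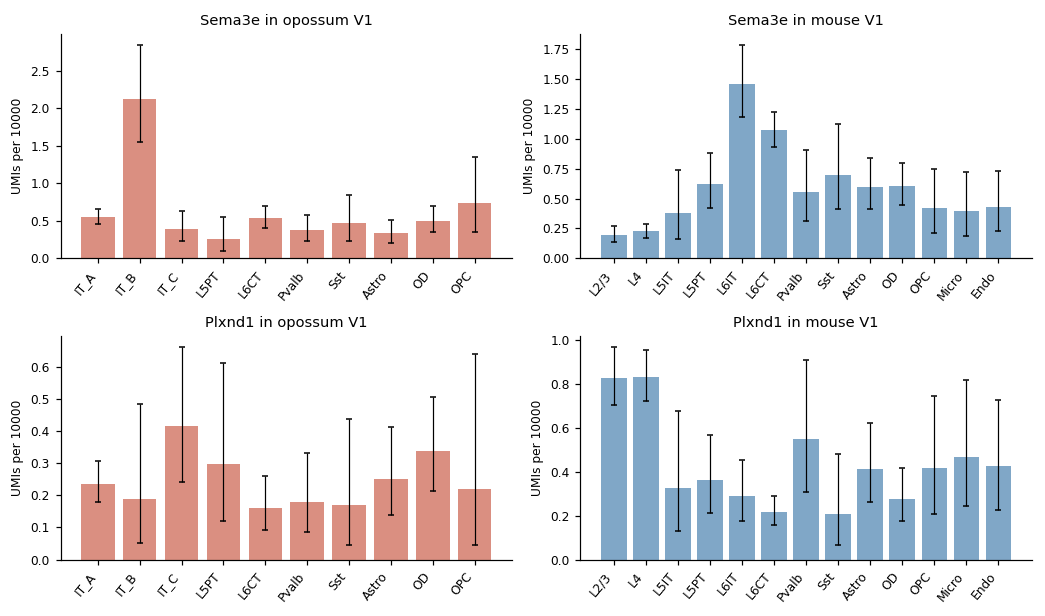
Level (UMIs per 10000 UMIs) of Sema3e (top) and its receptor Plxnd1 (bottom) in the subclasses of at least 100 V1 cells, opossum on the left and mouse on the right. Bars start at 0 and lines are 95% Poisson intervals. Sema3e stood at 2.12 in IT_B of the opossum and at 1.46 in L6IT of the mouse, and mouse Plxnd1 at 0.83 in both L2/3 and L4.

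The study compares upper with deep IT subclasses, IT_A with IT_C in the opossum and L2/3 with L5IT in the mouse. For members in the opossum, 7 of 37 were called higher in IT_A, against 11.0% of all features, and 2 higher in IT_C, against 6.23%. The 9 together were 24.3%, against 17.2%. SLIT3 at 5.91-fold [2.96 to 13.8], SEMA3A at 6.50-fold [2.73 to 20.2], EPHA3 at 2.98-fold [2.01 to 4.61] and EPHA4 at 2.47-fold [1.63 to 3.91] led on the IT_A side. In IT_C, SLIT3 rested on 8 UMIs, SEMA3A on 5, EPHA3 on 26 and EPHA4 on 24. The regions gave 1.87, 10.5 and 1.15 for EPHA3. These folds between IT subclasses were not matched for depth. Against all other labelled cells at matched depth, IT_A stood at 2.07 for SLIT3, 0.80 for SEMA3A, 1.64 for EPHA3 and 1.96 for EPHA4. SEMA5A at 1.96-fold [1.55 to 2.45] and EFNB2 at 1.75-fold [1.21 to 2.48] were higher in IT_C. In the mouse 4 of 52 were called higher in L2/3 (10.1% of features), and 2 in L5IT (2.92%). The 6 were 11.5% of the members, against 13.0%. On the L5IT side these were Efna5, 2.14-fold [1.5 to 2.99], and Sema3e, 1.92-fold [0.77 to 4.21]. On the L2/3 side Plxnd1 was 2.53-fold [1.20 to 6.39] and Epha10 2.20-fold [1.04 to 5.57] higher, each on 7 UMIs in L5IT, and Plxnb2 and Unc5b were called on 0 and 1 UMIs. The L5IT group held 135 cells. The number of calls moved with the regions used: with 1 region left out it was 10 to 16 in the opossum (10 without region 2, 15 without region 1 and 16 without region 3), against 26.4% to 28.4% of all features, and 10 to 15 in the mouse, against 21.5% to 23.9%, where it was 10 without region 1 or region 4, 12 without region 2 and 15 without region 3.

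Other genes of the pathway, a list of 37 outside the rule, gave 26 opossum and 37 mouse features, of which 22 and 33 were measured. In the opossum 4 of the 22 were called deep and 4 upper, where the shares of all features were 7.29% and 7.45%. The deep ones were CHL1, DSCAML1 and the membrane netrins NTNG1 (3.07-fold [2.17 to 4.42]) and NTNG2 (2.94-fold [2.08 to 4.22]), and the upper ones CELSR3, FZD3, LINGO1 and FLRT2, a ligand of Unc5d, which was 2.18-fold higher above. In the mouse Dpysl5 was deep and Fzd3 and Ntn5 were upper, both near the 1.5-fold limit, and these were 1 and 2 of the 33 (3.93% and 4.88% of all features). In a subclass, 11 of 22 opossum and 8 of 33 mouse genes of the list were called, against 41.6% and 24.5% of all features, and 11 and 7 at matched depth, against 43.8% and 26.0%. Netrin G1 was called in at least 1 subclass of each species. Its highest fold was in L5PT of both, at 15.7-fold in the opossum and 2.65-fold in the mouse. Rgma, a ligand of neogenin, was also called in at least 1 subclass of each. Its highest fold was in astrocytes of both, at 3.63-fold and 1.72-fold. These highest folds were not themselves checked region by region. Cxcl12, a chemokine, was 3.37-fold higher in mouse endothelial cells, without a call at matched depth.

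The members below the limit of 100 UMIs were 22 in the opossum and 15 in the mouse. They held the netrins of both species, SEMA4A (36 UMIs) and EFNB3 (4 UMIs) of the opossum, which were measured in the mouse, and Epha8, Ephb4 and Sema3g (20, 23 and 37 UMIs) of the mouse. Of these, PLXNC1 (71 UMIs in the opossum) was 4.94-fold [2.33 to 11.7] higher in upper V1 with every region on that side, and measured mouse Plxnc1 was at 0.80-fold [0.63 to 1.02]. Plxnb3, a plexin known from oligodendrocytes, was 2.82-fold [1.53 to 5.56] higher in lower V1 of the mouse on 98 UMIs and 1.72-fold [0.90 to 3.34] higher in upper V1 of the opossum on 75 UMIs.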

How the data were processed

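The authors deposited, for each species, UMI counts of every feature in every segmented cell without normalization, a table of cell labels (V1 region, passing of the filter, class and subclass with the round of labelling), and cell positions as coordinates, a score with 2 units per µm. They had aligned mouse reads to GRCm39 and opossum reads to a custom genome with the Stereo-seq workflow, had kept cells with at least 50 genes and 100 UMIs, and had labelled cells over 3 rounds. Counting by strand is not given in the sources used here, so antisense and overlapping features cannot be told apart. Mouse coordinates are those of the GENCODE annotation of GRCm39, matched by gene identifier.

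Depth ran along a side of the smallest rectangle around each V1 region, from its top (0) to its bottom (1). The side was the one that best separated L6CT from IT_A or L2/3 cells, with IT_A or L2/3 above L6CT. The axis and its direction were thus chosen with the subclass labels, which rest on expression. UMIs were summed over cells and divided by summed totals per 10000. Folds needed 100 UMIs in V1 and, for a subclass, 100 cells and 10 UMIs in it, and levels of a subclass needed 25 cells. Matched folds divided the UMIs of a subclass by those expected from other labelled cells of the same region and the same of 10 depth bins. The depth calls, and the subclass and matched-depth calls for L6CT, were tested on simulated counts. These were Poisson counts with the same rates in every region and no UMIs of neighbouring cells. Spread between regions and mixing were thus not covered. The other steps had no such test. The tools were shapely 2.1.2, matplotlib 3.10.9, pandas 2.3.3, scipy 1.17.1 and numpy 2.4.6 under Python 3.11.15.

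Members, gene lists and rules were chosen with earlier results of these data known. Named were the 10 highest and 10 lowest depth folds with every region on the same side, the 15 highest subclass folds, their counterparts in the other species, other members of a family described, and a fixed list (Sema3e, Plxnd1, Epha4, Efna5, Unc5d, Nrp1, Ntn4, Slit1, Slit2, Slit3, Robo1, Robo2, Dcc, Sema4d, Plxnb3). PLXNC1, Sema7a, Sema3d and members outside this rule were picked after their values were seen. Alternatives changed the filters, thinned each cell to 300 UMIs, and changed the limits, denominators, cells, depth bins and labels, and left out each region.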

Additional observations from a re-analysis of the deposited data

Results flagged for a closer look

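For 5 members every opossum V1 region lay on the opposite side of 1 from every mouse region in the lower over upper fold. The log2 fold of the mouse minus that of the opossum was 2.54 for Sema3e, 1.98 for Sema5b, 1.61 for Ephb1, 0.68 for Epha7 and -1.31 for Epha5. The difference between the species was not tested, since each is 1 animal and the regions of 1 animal are not samples. Of these, Epha7 was under 1.5-fold in both species, Sema3e and Ephb1 were called in the mouse only, Epha5 in the opossum only, and Sema5b in both.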

How the results depend on the processing

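No paired analysis was possible because each species is 1 sample. Over the named members, 595 depth folds under the alternatives stayed within the counting interval of the reported fold and 88 moved outside it. A further 3 changed side for a member that had been called by depth. For members not called, a change of side was not counted apart. An alternative chosen after seeing the data used cells of the non-neuronal class only. There NRP1 fell to 0.643, SEMA5B went to 1.09 and Ephb1 to 0.801, on few UMIs. The opossum then had 3 deep calls (8.11%, against 11.9% of all features) and 4 upper calls (10.8%, against 8.82%). The mouse had 4 deep calls (7.69%, against 6.63%) and 6 upper calls (11.5%, against 4.14%). Of subclass folds, 582 stayed, 47 moved and 1 changed direction, Sema4d in mouse oligodendrocytes at 0.756 after thinning. Thinning to 300 UMIs, on fewer UMIs, gave 13 upper calls in the opossum (35.1%, against 9.34% of all features). It gave 18 subclass calls (48.6%, against 28.9%) and 15 matched calls (40.5%, against 30.1%) there. In the mouse it gave 16 subclass calls (30.8%, against 16.4%) and 16 matched calls (30.8%, against 17.9%). The mouse also had 11 upper against deep IT calls (21.2%, against 16.6%). At a lower fold limit the opossum had 10 deep calls (27.0%, against 15.4% of all features) and 14 upper calls (37.8%, against 14.1%). At 2-fold the opossum had 19 subclass calls (51.4%, against 17.3%) and 18 matched calls (48.6%, against 18.9%). The mouse at 2-fold had 4 deep calls (7.69%, against 1.42%) and 2 upper calls (3.85%, against 1.78%). It had 14 subclass calls (26.9%, against 9.88%) and 16 matched calls (30.8%, against 10.2%). A split of V1 at its middle gave 5 upper calls in the mouse (9.62%, against 3.6%). The IT comparison moved most. Each region left out in turn gave 10 to 16 in the opossum in place of 9 (15 without region 1 and 16 without region 3). In the mouse it gave 10 to 15 in place of 6. With a region left out, a call needs fewer regions on the same side. The shares of all features were then 26.4% to 28.4% in the opossum, in place of 17.2%. In the mouse they were 21.5% to 23.9%, in place of 13.0%. A mean over cells gave 11 in the mouse (21.2%, against 14.6%). Labels of the first and second rounds gave 10 there (19.2%, against 14.4%). The cause of these moves was not tested. The number of members on the same side in both species was 13 to 23, with 19 of 35 as reported. Other UMI limits changed how many members were compared, so part of this range is a change of that number. The same count over all shared symbols was not made for the alternatives.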
